A study of Mus musculus with 6 samples.

Results

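Type I interferon response genes were examined in the lungs of mice that carried human breast tumours with or without the gene DPP3. The set is a fixed list of 36 interferon-stimulated genes, chosen with earlier results of these data known. Its genes were matched by symbol in a table of 56980 mouse genes. All 36 were found and passed the filter of a mean of at least 1 TPM, which left 15650 genes to test. TPM is a transcript level corrected for length, with the same total in each library. NSG mice, an immunodeficient NOD strain with the scid mutation of Prkdc and a null allele of Il2rg, received tumour cells in the mammary fat pad, and lung RNA was sequenced after 5 weeks. In the Ctrl group (n = 3 libraries) the tumours came from the human triple-negative breast cancer line MDA-MB-231, and in the DPP3_KO group (n = 3) from the same line with DPP3, which encodes dipeptidyl peptidase 3, knocked out. Host genotype is thus shared by both groups, and the sources used here do not give the age or sex of the mice or whether the knockout line was 1 clone or a pool. Since the labels leave unsaid whether the libraries of a group are different mice, the p-values refer to the spread among these 6 libraries.

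Type I interferons bind a receptor made of IFNAR1 and IFNAR2 on nearly every nucleated cell and activate the kinases JAK1 and TYK2. These phosphorylate STAT proteins, among them STAT2, which join IRF9 in a complex that binds the interferon-stimulated response element (ISRE) in front of antiviral genes. In the lung, endothelial, epithelial and myeloid cells all respond, and a low tonic level of the response is present without infection. In the NSG strain mature lymphocytes and natural killer cells, the main sources of interferon-gamma, are missing, whereas the type I receptor and its signalling chain are intact.

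Promoter sequence was examined first, as a description. The members were listed as interferon-stimulated genes, and the ISRE lies in front of such genes. Its share among them is thus not independent of the choice of the list. RefSeq promoter windows on GRCm38.p6, from 250 bases before to 50 bases after the transcription start, were found for 27 of the 36 members. The ISRE core was searched on both strands as GAAA, any 2 bases, then GAAA. It was present in 15 of these 27 genes (55.6%), against 3.99% of the 27025 genes in the whole promoter table and 3.87% of the 11198 tested genes that had a window. In 8 members the window held 2 or more matches, which may overlap each other. The motif TTC, any 3 bases, then GAA, the core of the gamma-activated site, was present in 6 of the 27 (22.2%), against 9.55% of all genes with a window. A match is a description of these letters and not evidence of binding.

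Shown here are the 250 bases before the start of the 4 members with the smallest p-values among those with an ISRE match, and the 150 bases before the start of Ifi44, which had the smallest p-value among the members without one. The lack of a match there says only that these letters are not in the window. Capitals mark the ISRE matches, which in these promoters lie on the strand opposite to the searched form and read TTTC, 2 bases, then TTTC.
Ifit3: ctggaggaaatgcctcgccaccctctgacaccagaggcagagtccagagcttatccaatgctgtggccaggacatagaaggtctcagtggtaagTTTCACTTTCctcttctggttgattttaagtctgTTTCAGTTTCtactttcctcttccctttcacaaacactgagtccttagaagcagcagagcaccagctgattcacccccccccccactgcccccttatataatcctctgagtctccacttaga
Ifit1: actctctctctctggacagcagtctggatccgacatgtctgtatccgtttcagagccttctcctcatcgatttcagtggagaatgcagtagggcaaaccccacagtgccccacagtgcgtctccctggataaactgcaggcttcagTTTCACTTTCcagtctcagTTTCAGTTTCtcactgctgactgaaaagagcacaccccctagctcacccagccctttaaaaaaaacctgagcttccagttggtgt
Ifit3b: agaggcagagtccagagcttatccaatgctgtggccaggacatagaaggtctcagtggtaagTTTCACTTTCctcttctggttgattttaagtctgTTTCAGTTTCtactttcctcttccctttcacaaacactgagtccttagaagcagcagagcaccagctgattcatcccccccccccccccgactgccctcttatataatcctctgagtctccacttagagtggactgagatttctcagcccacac
Stat2: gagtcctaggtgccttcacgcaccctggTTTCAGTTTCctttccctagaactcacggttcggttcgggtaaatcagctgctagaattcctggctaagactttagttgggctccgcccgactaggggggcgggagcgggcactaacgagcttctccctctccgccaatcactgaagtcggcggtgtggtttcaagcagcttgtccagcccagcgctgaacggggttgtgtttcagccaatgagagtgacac
Ifi44: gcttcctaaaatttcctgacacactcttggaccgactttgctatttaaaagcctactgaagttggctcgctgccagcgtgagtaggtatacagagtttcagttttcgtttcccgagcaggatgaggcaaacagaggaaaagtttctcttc
The stretches lie at chr19:34583279-34583528, plus strand for Ifit3, chr19:34640639-34640888, plus strand for Ifit1, chr19:34607707-34607956, plus strand for Ifit3b, chr10:128270248-128270497, plus strand for Stat2 and chr3:151749911-151750060, minus strand for Ifi44. The first bases of the matches lay 156 and 122 bases before the start in Ifit3, 104 and 85 in Ifit1, and 188 and 154 in Ifit3b, and the single match of Stat2 lay 222 bases before it. In the 3 Ifit promoters the distal match was TTTCACTTTC and the proximal one TTTCAGTTTC, and the match of Stat2 was also TTTCAGTTTC. The Ifit3 and Ifit3b stretches were 96.9% identical over 224 aligned bases, and the transcripts of the pair were 97.8% identical over 1700. Of the 50-base stretches of the Ifit3 transcript 51.2% also occurred in Ifit3b, so reads can be shared and the level of each of the pair is uncertain. The same holds for Oas1a, 57.6% of whose 50-base stretches occurred in Oas1g, and the members outside these 3 shared at most 13.6% (Rtp4) with any 1 other gene.

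Most interferon response genes were lower in DPP3_KO than in Ctrl lungs in the deposited values. Of the 36 members, 23 fell and 0 rose (limma, Benjamini-Hochberg adjustment over all tested genes, threshold 0.05), against 34.0% of all tested genes called lower and 1.38% called higher. All 36 changes were below 0, as were 86.2% of those over all genes, and their median log2 change was -1.17, against -0.60 over all genes. For 28 members each DPP3_KO library lay below each Ctrl library, which was so for 51.1% of all tested genes, and for 0 members each lay above, against 2.73%. The summed level of the members was 1141 to 1588 TPM in Ctrl and 563 to 863 TPM in DPP3_KO.

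The rest of the table was lower in DPP3_KO as well. TPM sums to the same total in every library, and the club cell secretoglobin Scgb1a1 alone took 7.16% to 10.1% of the total in Ctrl and 21.7% to 28.7% in DPP3_KO. Median-of-ratios scaling, which sets each library against the typical gene, brought the median of all genes to -0.03. On that scale 0 members passed, against 0.882% of all genes called lower, and 13 members had an unadjusted limma p under 0.05, all of them lower, against 11.6% of all genes. Of the 36 changes 33 were still below 0, against 52.3% over all genes, with a median of -0.59 and a range from -1.17 (Ifit3b) to 0.08 (Usp18). For 12 members the groups still did not overlap, all lower in DPP3_KO, against 15.4% of all genes. With the trend of each library with gene length also removed, 36 of 36 changes were below 0 with a median of -0.52, and 0 passed, against 0.581% of all genes called lower. Quantile normalization also left 0 members called, against 0.895%, at a median of -0.56. Members with an unadjusted limma p under 0.05 numbered 11 and 12 on these 2 scales, all of them lower, against 10.3% and 10.8% of all genes.

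**Figure D1:**
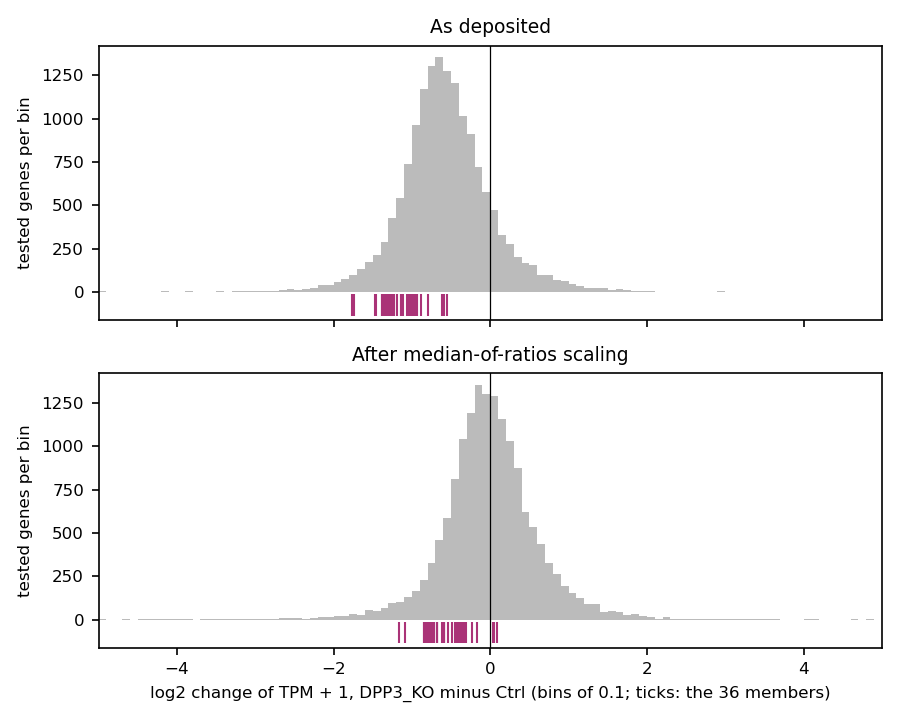
Histograms of the log2 change of TPM + 1, DPP3_KO minus Ctrl, for 15650 tested genes in bins of 0.1, as deposited (top) and median-of-ratios scaled (bottom), with a tick for each of the 36 interferon response genes. Most ticks lie on the left side of both distributions, 34 of 36 below the median of all genes as deposited and 33 after scaling. Medians were -1.17 against -0.60 for all genes as deposited and -0.59 against -0.03 after scaling.

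The calls as deposited rested on particular libraries, over the whole table as for the members. Without Ctrl replicate 1 or without Ctrl replicate 2, 0 members passed, against 0.115% and 0.454% of all genes called lower, at median changes of -1.13 and -1.11. In these 2 fits 24 and 22 members had an unadjusted limma p under 0.05, all lower, against 38.3% and 32.8% of all genes. Without DPP3_KO replicate 1 or 3, 12 and 10 members passed, against 20.2% and 10.2% of all genes, and without Ctrl replicate 3 or DPP3_KO replicate 2, 19 and 29 passed, against 26.2% and 31.9%. When TPM was rescaled without Scgb1a1, Ifit3 and Ifit1 were the 2 members that passed, against 2.70% of all genes called lower, and the median was -0.91 against -0.33 over all genes. All changes below are log2 differences of TPM + 1, DPP3_KO minus Ctrl, which understate the change of low genes, and each member's value after median-of-ratios scaling is given beside it. Over all tested genes the medians of these changes were -0.60 as deposited and -0.03 after scaling. Groups did not overlap, with DPP3_KO lower, for 51.1% of all tested genes as deposited and 15.4% after scaling.

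**Figure D2:**
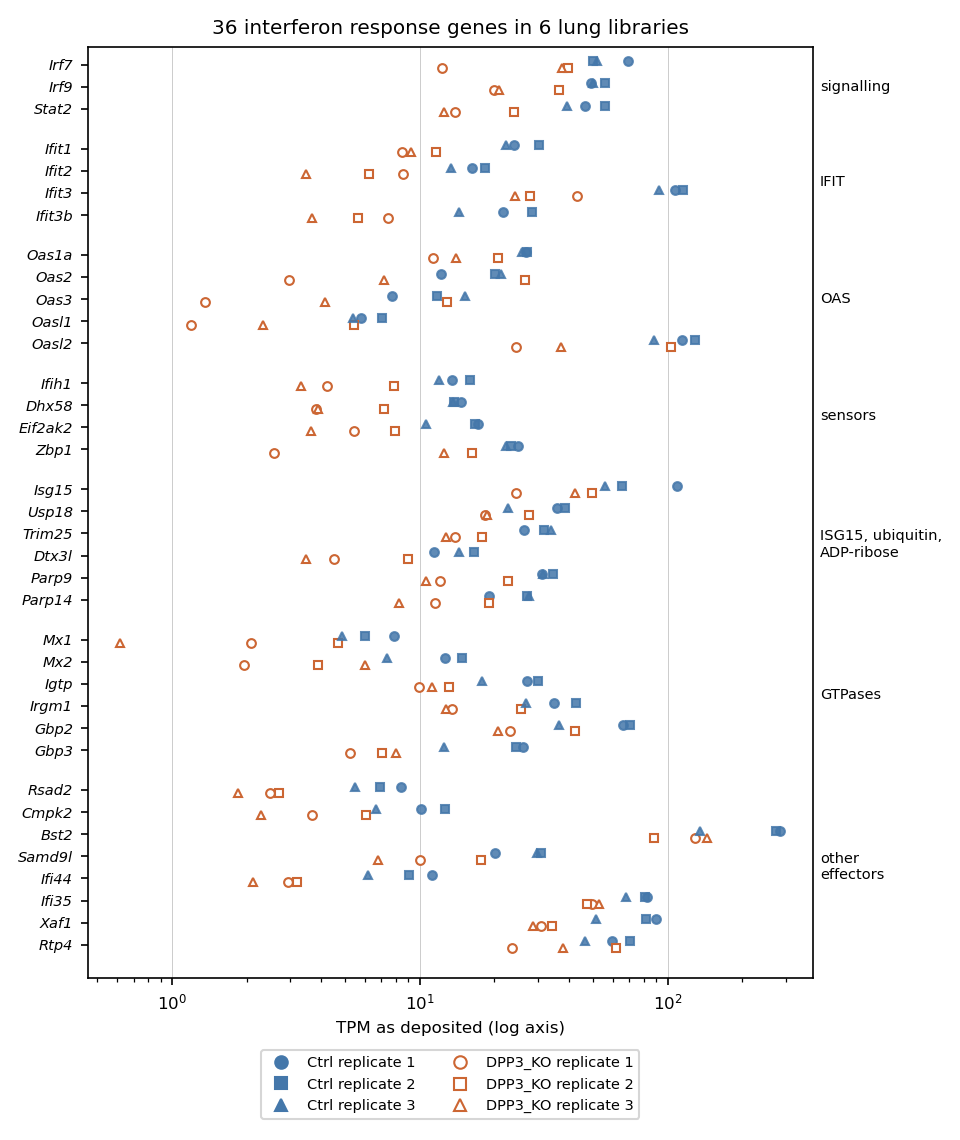
TPM as deposited (log axis) of the 36 interferon response genes, grouped by role, in the 3 Ctrl libraries (filled) and the 3 DPP3_KO libraries (open), with a marker shape for each replicate number. Ctrl points lie to the right for most genes, and DPP3_KO replicate 2 reaches the Ctrl range for Oas2, Oas3, Oasl1, Oasl2, Usp18, Gbp2 and Rtp4.

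Of the 3 signalling and transcription genes, 2 were called lower as deposited, against 34.0% of all tested genes. Both encode subunits of the pathway's own transcription complex, and 0 passed after scaling (medians of the 3 genes -1.06 and -0.42). Stat2, which encodes the subunit that carries the activation domain, stood at 46.3, 56.1 and 39.1 TPM in Ctrl and 13.9, 24.1 and 12.5 TPM in DPP3_KO. All 3 DPP3_KO libraries lay below the Ctrl range, and the log2 change was -1.48 ± 0.28 SE (adjusted p = 0.0166). With median-of-ratios scaling it stood at -0.84, still without overlap. Irf9, the DNA-binding subunit of the same complex, stood at 48.9, 55.7 and 50.01 TPM in Ctrl and 19.9, 36.4 and 20.8 TPM in DPP3_KO. Its groups did not overlap either, with DPP3_KO replicate 2 the highest of its group, and the change was -1.03 ± 0.25 SE (adjusted p = 0.0242), or -0.39 after scaling. Irf7, the factor that amplifies interferon-alpha production, stood at 69.2, 50.02 and 51.8 TPM in Ctrl and 12.3, 39.7 and 37.5 TPM in DPP3_KO. DPP3_KO replicate 1 was far below the other two, and with that spread the change of -1.06 did not pass (adjusted p = 0.0872). After scaling it was -0.42, and the groups overlapped.

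All 4 IFIT genes, whose products bind viral RNA and block its translation, were called lower as deposited, against 34.0% of all tested genes. Their median change was -1.53, against -0.60 over all genes. Ifit3, which stabilises IFIT1 on RNA, stood at 108, 116 and 92.6 TPM in Ctrl and 43.3, 27.8 and 24.2 TPM in DPP3_KO. Each DPP3_KO library lay well below the lowest Ctrl library, the Ctrl mean was 3.32-fold that of DPP3_KO, and the change was -1.74 ± 0.24 SE (adjusted p = 0.0145). Its near-copy Ifit3b stood at 21.7, 28.5 and 14.4 TPM in Ctrl and 7.47, 5.66 and 3.66 TPM in DPP3_KO, a change of -1.76 ± 0.32 SE (adjusted p = 0.0159), the lowest of all 36 members. Ifit1, which recognises RNA with an unmethylated cap, stood at 24.1, 30.3 and 22.4 TPM in Ctrl and 8.51, 11.7 and 9.20 TPM in DPP3_KO. Here the DPP3_KO libraries were close together and apart from Ctrl, and the change was -1.30 ± 0.20 SE (adjusted p = 0.0145). Ifit2 stood at 16.3, 18.3 and 13.4 TPM in Ctrl and 8.60, 6.23 and 3.48 TPM in DPP3_KO, again without overlap (change -1.32 ± 0.30 SE, adjusted p = 0.0214). After median-of-ratios scaling the groups of all 4 still did not overlap, which was so, with DPP3_KO lower, for 15.4% of all tested genes. The changes were -1.09, -1.17, -0.68 and -0.73 for Ifit3, Ifit3b, Ifit1 and Ifit2. Their limma adjusted p of 0.0603, 0.0715, 0.0732 and 0.161 did not pass.

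The OAS genes, which encode oligoadenylate synthetases that switch on RNase L and their relatives, had a median change of -0.96 as deposited and -0.45 after scaling. Only Oas1a of the 5 was called lower, against 34.0% of all tested genes. It stood at 26.8, 27.1 and 25.9 TPM in Ctrl and 11.3, 20.7 and 14.0 TPM in DPP3_KO. Its change was -0.80 ± 0.23 SE (limma adjusted p = 0.0378), or -0.17 after scaling. Its 3 Ctrl libraries were close together, and the groups did not overlap. Oasl2, which encodes an OAS-like protein with ubiquitin-like domains, stood at 114, 129.6 and 88.4 TPM in Ctrl and 24.5, 103 and 37.1 TPM in DPP3_KO. DPP3_KO replicate 2 lay within the Ctrl range while the other two were far below it, and the change of -1.25 ± 0.48 SE did not pass (adjusted p = 0.0786, or -0.60 after scaling). Oas2 stood at 12.2, 20.1 and 21.4 TPM in Ctrl and 2.97, 26.7 and 7.18 TPM in DPP3_KO, with DPP3_KO replicate 2 above all Ctrl libraries and DPP3_KO replicate 1 the lowest. Its change of -0.93 did not pass (adjusted p = 0.278, or -0.34 after scaling). Oas3, which makes longer oligoadenylate chains, stood at 7.71, 11.8 and 15.2 TPM in Ctrl and 1.36, 12.9 and 4.15 TPM in DPP3_KO. Oasl1, a translational brake on Irf7, stood at 5.77, 7.06 and 5.37 TPM in Ctrl and 1.19, 5.44 and 2.34 TPM in DPP3_KO. Both showed the same order, with DPP3_KO replicate 2 inside the Ctrl range, and neither change passed (-1.14 and -0.96, adjusted p = 0.166 and 0.0878, or -0.59 and -0.45 after scaling).

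The OAS and IFIT families had a different order of libraries within DPP3_KO. The 5 OAS genes summed to 167, 196 and 156 TPM in Ctrl replicates 1 to 3 and to 41.4, 169 and 64.7 TPM in DPP3_KO replicates 1 to 3. In the 4 IFIT genes the sums were 169.7, 193 and 143 TPM in Ctrl and 67.8, 51.3 and 40.5 TPM in DPP3_KO. As deposited the OAS sum of DPP3_KO replicate 2 thus lay within the Ctrl range, with Oasl2 at 103 TPM the largest part. Oas1a of that library and its IFIT sum lay below the Ctrl range. DPP3_KO replicate 1 had the lowest OAS sum and the highest IFIT sum of its group. After median-of-ratios scaling the OAS sums were 132 to 145 in Ctrl and 51.5, 187 and 93.1 in DPP3_KO replicates 1 to 3. Replicate 2 then lay above the Ctrl range, as did its Oas1a at 23.0 against 20.15 to 21.9. The scaled IFIT sums were 121 to 143 in Ctrl and 84.5, 56.9 and 58.3 in DPP3_KO, each below Ctrl. Outside the OAS family, DPP3_KO replicate 2 as deposited also lay within the Ctrl range for Usp18, Gbp2 and Rtp4. Over all 36 members, as deposited, DPP3_KO replicate 2 was the highest DPP3_KO library for 29, replicate 1 for 3 and replicate 3 for 4. The share over all genes was not counted. Median-of-ratios size factors of DPP3_KO replicates 1 to 3 were 0.803, 0.903 and 0.695, so the typical gene was also highest in replicate 2. The difference between the families was not tested.

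**Figure D3:**
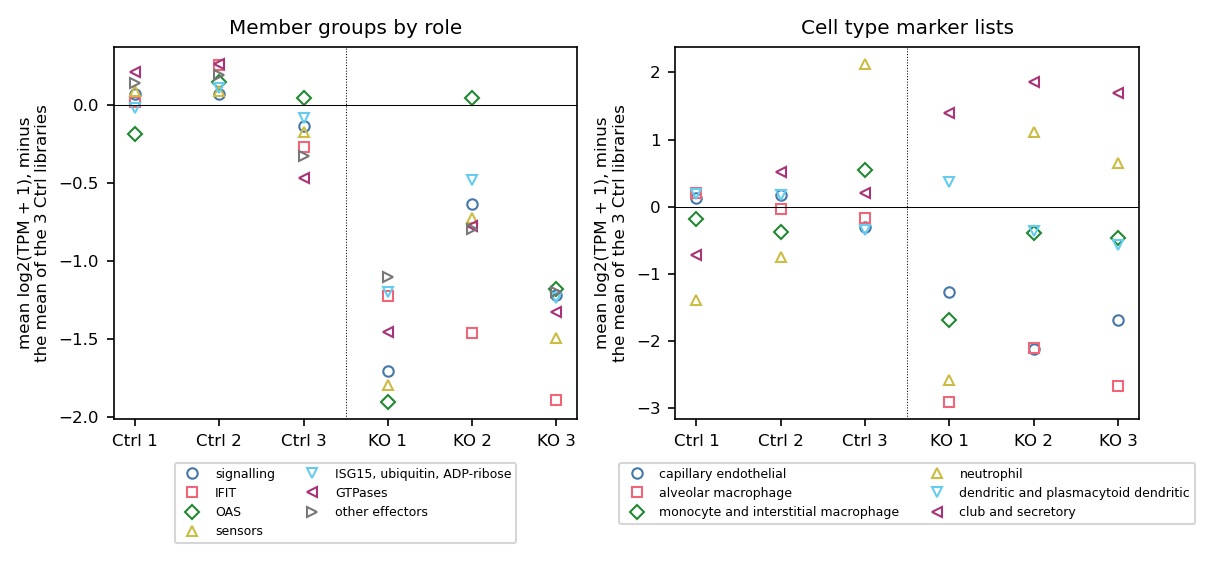
Mean log2(TPM + 1), as deposited, of each group of interferon response genes (left) and of cell type marker lists (right) in each library, minus the mean of the 3 Ctrl libraries (KO stands for DPP3_KO). The OAS group lies near the Ctrl mean in DPP3_KO replicate 2 whereas the IFIT group is low in all 3 DPP3_KO libraries, and the neutrophil list is high in Ctrl replicate 3 and DPP3_KO replicates 2 and 3.

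Among sensors of foreign nucleic acid, 3 of 4 were called lower as deposited, against 34.0% of all tested genes. The median change of the 4 was -1.35, or -0.76 after scaling. Dhx58, which encodes the RNA helicase LGP2, stood at 14.7, 13.8 and 13.6 TPM in Ctrl and 3.83, 7.2 and 3.88 TPM in DPP3_KO. The Ctrl values were nearly equal, all DPP3_KO values were lower, and the change was -1.38 ± 0.25 SE (adjusted p = 0.0160), or -0.80 after scaling. Ifih1, the gene of the double-stranded RNA sensor MDA5, stood at 13.4, 16.0 and 12.0 TPM in Ctrl and 4.24, 7.85 and 3.33 TPM in DPP3_KO. Again no DPP3_KO library reached the lowest Ctrl library (change -1.33 ± 0.29 SE, adjusted p = 0.0200, or -0.75 after scaling). Eif2ak2, which encodes the kinase PKR that halts translation, changed by -1.27 (adjusted p = 0.0228), or -0.69 after scaling. Zbp1, a sensor of Z-form nucleic acid that can start necroptosis, stood at 24.9, 23.3 and 22.3 TPM in Ctrl and 2.57, 16.3 and 12.5 TPM in DPP3_KO. DPP3_KO replicate 1 lay far below the other two, and although the groups did not overlap the change of -1.38 did not pass (adjusted p = 0.0824, or -0.78 after scaling).

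In the group of ISG15, ubiquitin and ADP-ribose enzymes 3 of 6 were called lower as deposited, against 34.0% of all tested genes. The median change of the 6 was -0.99, or -0.35 after scaling. Trim25, a ubiquitin ligase of the RIG-I pathway, stood at 26.5, 31.7 and 33.9 TPM in Ctrl and 13.8, 17.8 and 12.8 TPM in DPP3_KO. The groups were apart, and the change was -1.01 ± 0.20 SE (adjusted p = 0.0175), or -0.38 after scaling. Parp9, which works in a complex with the ubiquitin ligase encoded by Dtx3l, stood at 31.1, 34.4 and 31.5 TPM in Ctrl and 12.1, 22.8 and 10.6 TPM in DPP3_KO (change -1.12 ± 0.28 SE, adjusted p = 0.0261, or -0.49 after scaling). Dtx3l itself changed by -1.26 (adjusted p = 0.0267), or -0.68 after scaling, and both genes were highest within DPP3_KO in replicate 2. Isg15, the ubiquitin-like modifier, stood at 109.7, 65.4 and 56.2 TPM in Ctrl and 24.5, 49.5 and 42.2 TPM in DPP3_KO. Ctrl replicate 1 was the highest library, the groups did not overlap, and the change of -0.97 did not pass (adjusted p = 0.0592, or -0.33 after scaling). Parp14, a mono-ADP-ribosyltransferase, had a change of -0.93 that did not pass (adjusted p = 0.0520, or -0.31 after scaling). Usp18, the ISG15 protease that also restrains the receptor, stood at 35.8, 38.4 and 22.8 TPM in Ctrl and 18.3, 27.5 and 18.7 TPM in DPP3_KO. Its groups overlapped, its change of -0.56 was the nearest to 0 of the 36 (adjusted p = 0.129), and after scaling it was 0.08.

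Interferon-inducible GTPases attack viral particles or the vacuoles of intracellular pathogens. Of the 6 listed, 4 were called lower as deposited, against 34.0% of all tested genes. The median change of the 6 was -1.14, or -0.59 after scaling. Gbp3, a guanylate-binding protein gene, stood at 26.1, 24.5 and 12.5 TPM in Ctrl and 5.25, 7.06 and 7.99 TPM in DPP3_KO. Ctrl replicate 3 was the lowest Ctrl library but still above DPP3_KO (change -1.46 ± 0.31 SE, adjusted p = 0.0188, or -0.85 after scaling). Igtp, which encodes the immunity-related GTPase IRGM3, stood at 27.1, 30.1 and 17.9 TPM in Ctrl and 9.90, 13.1 and 11.2 TPM in DPP3_KO (change -1.04 ± 0.24 SE, adjusted p = 0.0212, or -0.42 after scaling). Its DPP3_KO values lay within a narrow range below all Ctrl values. Irgm1, a regulator of the same family, changed by -1.01 (adjusted p = 0.0401), and Mx2 by -1.38 (adjusted p = 0.0308), or -0.38 and -0.82 after scaling. Mx1, of which most inbred laboratory mice carry a defective allele, stood at 7.91, 6.01 and 4.84 TPM in Ctrl and 2.09, 4.67 and 0.62 TPM in DPP3_KO. These were among the lowest levels of the list, DPP3_KO replicate 3 was below the others, and the change of -1.23 did not pass (adjusted p = 0.0667, or -0.76 after scaling). Gbp2, another guanylate-binding protein gene, had overlapping groups and a change of -1.001 that did not pass (adjusted p = 0.0593, or -0.36 after scaling).

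Other antiviral effectors were mostly lower as well, with 6 of 8 called as deposited, against 34.0% of all tested genes. The median change of the 8 was -1.17, or -0.57 after scaling. Rsad2, the gene of viperin, which makes a chain-terminating nucleotide, stood at 8.38, 6.93 and 5.49 TPM in Ctrl and 2.48, 2.71 and 1.85 TPM in DPP3_KO. The DPP3_KO libraries were close together and below Ctrl (change -1.24 ± 0.23 SE, adjusted p = 0.0166), and the groups were still apart after scaling (-0.72, adjusted p = 0.0915). Ifi44 stood at 11.2, 9.04 and 6.17 TPM in Ctrl and 2.94, 3.20 and 2.13 TPM in DPP3_KO. It showed the same pattern, with a change of -1.36 ± 0.26 SE (adjusted p = 0.0170), or -0.83 after scaling. Cmpk2, a nucleotide kinase gene, Samd9l, a restrictor of translation, and Xaf1, a proapoptotic gene, changed by -1.14, -1.23 and -1.19 (adjusted p = 0.0396, 0.0328 and 0.0177), or -0.59, -0.61 and -0.55 after scaling.

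Ifi35 was the called member whose sign depended on the scale. It stood at 83.0, 81.4 and 68.2 TPM in Ctrl and 49.6, 47.1 and 53.1 TPM in DPP3_KO, lower in each DPP3_KO library (change -0.62 ± 0.16 SE, adjusted p = 0.0283). After median-of-ratios scaling its change was 0.028 (adjusted p = 0.946) and the groups overlapped, and after quantile normalization it was -0.05. Rtp4, which encodes an interferon-induced chaperone, stood at 59.7, 70.4 and 46.5 TPM in Ctrl and 23.5, 62.0 and 37.9 TPM in DPP3_KO. DPP3_KO replicate 2 lay in the Ctrl range, and the change was -0.59 as deposited (adjusted p = 0.206) and 0.05 after scaling. Bst2, the gene of tetherin, which holds budding virions at the cell surface, was the most abundant member at 284, 273 and 136 TPM in Ctrl and 129, 88.2 and 144 TPM in DPP3_KO. Ctrl replicate 3 lay within the DPP3_KO range, and the change of -0.89 did not pass (adjusted p = 0.0703, or -0.23 after scaling).

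**Figure D4:**
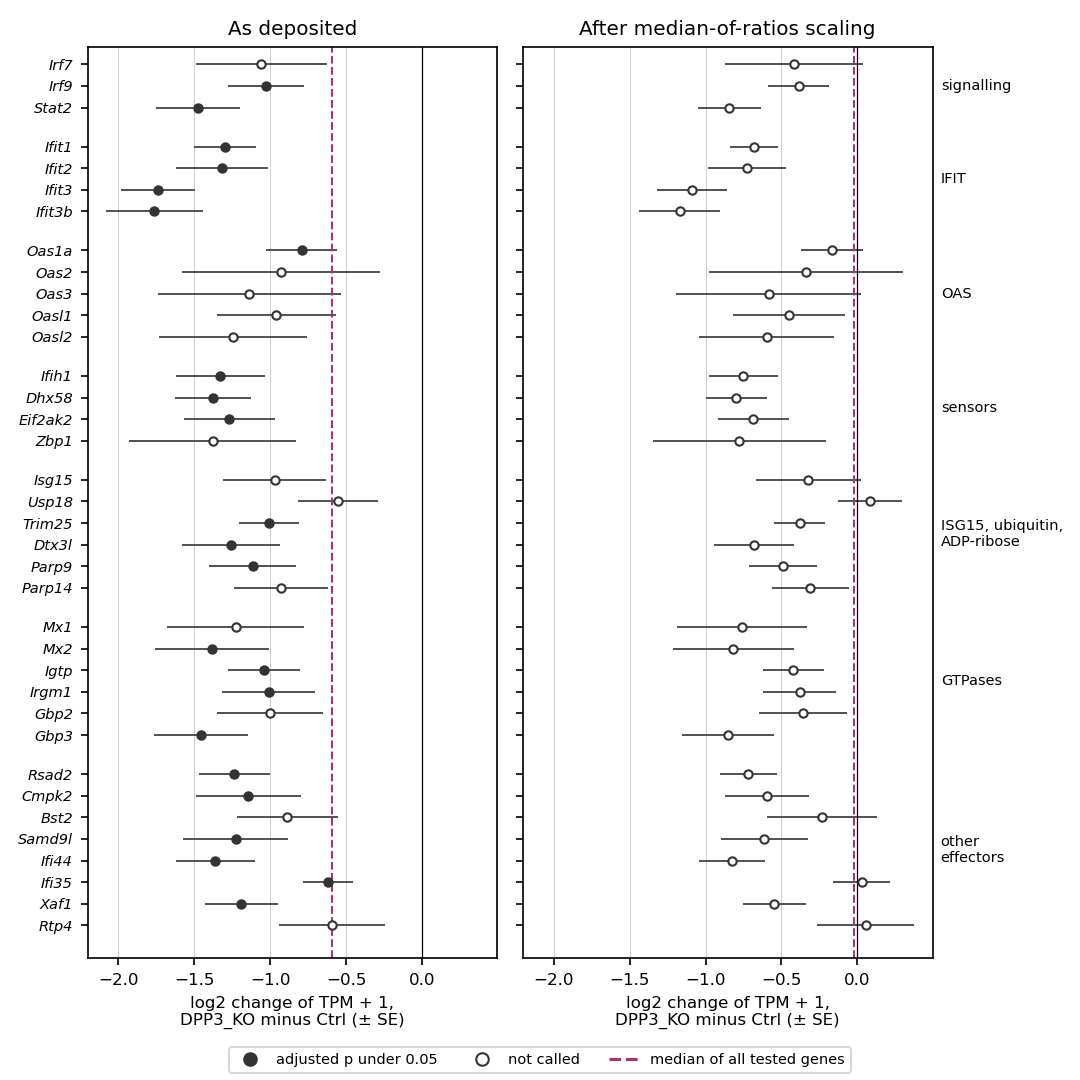
log2 change of TPM + 1 (± SE, n = 3 against 3) of each interferon response gene, as deposited (left) and median-of-ratios scaled (right), filled where limma's adjusted p was under 0.05, with the median of all tested genes as a dashed line. On the left 23 of 36 points are filled; on the right none is, and 33 of 36 lie below 0.

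The members were also set side by side by the presence of an ISRE match, and the difference was not tested. Over all tested genes 34.0% were called lower as deposited, at a median change of -0.60. Of the 15 members with a match 11 were called lower as deposited, with a median change of -1.24. Of the 12 whose window held no match 9 were called lower, with a median of -1.17. Of the 9 that had no window 3 were, near the share over all genes, with a median of -1.12. After median-of-ratios scaling the medians were -0.68, -0.57 and -0.49, against -0.03 over all genes.

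The interferon ligands were at or near the bottom of the table. All 18 type I interferon genes listed, among them Ifnb1, were listed at 0 TPM in every library. Ifng, the type II interferon gene, was listed at 0.51 TPM in Ctrl replicate 2 and at 0 in the other 5, and Ifnl3 at 0.19 TPM in Ctrl replicate 1 and at 0 elsewhere. Of 10 lymphoid marker genes only Cd3d reached a mean of 1 TPM, and the list summed to 3.18 to 3.5 TPM in Ctrl and 0.88 to 3.61 TPM in DPP3_KO.

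Of 6 interferon receptor genes 1 was called lower as deposited, against 34.0% of all tested genes, and 0 passed after scaling. Median changes were -0.64 and 0.01, near the -0.60 and -0.03 over all genes, against the members' -1.17 and -0.59. Ifnar1 stood at 34.4, 41.6 and 47.6 TPM in Ctrl and 19.0, 35.3 and 19.5 TPM in DPP3_KO, with DPP3_KO replicate 2 inside the Ctrl range (change -0.77 ± 0.27 SE, adjusted p = 0.0630). Ifnar2 stood at 99.5, 85.4 and 84.7 TPM in Ctrl and 44.9, 59.2 and 58.5 TPM in DPP3_KO, without overlap (change -0.73 ± 0.18 SE, adjusted p = 0.0253). After scaling the changes of the pair were -0.13 and -0.08. Ifnlr1, the interferon-lambda receptor gene, had a change of -0.90 that did not pass (adjusted p = 0.0862, or -0.33 after scaling).

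Downstream of the receptors 6 of 8 JAK-STAT and IRF genes were called lower as deposited, against 34.0% of all tested genes. The median of the 8 was -0.88, or -0.23 after scaling with 0 called, against -0.60 and -0.03 over all genes. Jak1, the gene of a kinase bound to the receptor, stood at 69.8, 85.4 and 99.0 TPM in Ctrl and 29.6, 36.2 and 22.0 TPM in DPP3_KO. All DPP3_KO libraries lay below Ctrl (change -1.52 ± 0.23 SE, adjusted p = 0.0145, or -0.87 after scaling). Stat3, which serves other cytokines, changed by -0.91, or -0.26 after scaling. Among 6 negative regulators 2 were called lower, near the share of 34.0% over all tested genes. These were Ptpn11 (-1.23) and Pias1 (-1.10), at -0.59 and -0.49 after scaling. The change of Ptpn6 was -1.17, which did not pass (limma adjusted p = 0.197).

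Of 14 genes of nucleic acid sensing and interferon induction, 6 were called lower as deposited, against 34.0% of all tested genes. After scaling 0 passed. The medians of the 14 were -0.72 and -0.30, against -0.60 and -0.03 over all genes. Tlr3, the endosomal receptor for double-stranded RNA, fell from 14.1 ± 3.93 (SD, n = 3) to 4.29 ± 1.21 TPM, a change of -1.51. Ddx58, the gene of RIG-I, had a change of -1.41, and Tbk1, the kinase that activates IRF3, one of -1.25, and both passed as well. After scaling the changes of the 3 were -0.93, -0.78 and -0.61. They had the smallest p-values of the list, and of its 14 scaled changes 9 were below 0 and 5 above.

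From a list of 48 other interferon-stimulated genes 47 were tested. Of these 25 were called lower as deposited, against 34.0% of all tested genes, and the median of the list was -1.03. After scaling the median was -0.43 and 2 still passed, against 0.882% of all tested genes. These 2 were Ifi203, a nuclear DNA-binding protein gene of the HIN family, and Slfn5, a Schlafen family gene. Ifi203 stood at 23.5, 23.8 and 16.3 TPM in Ctrl and 4.58, 6.72 and 3.17 TPM in DPP3_KO, and its change was -1.95 ± 0.28 SE as deposited and -1.37 after scaling (adjusted p = 0.0145 and 0.0281). Slfn5 stood at 42.0, 70.0 and 50.7 TPM in Ctrl and 16.5, 17.4 and 15.0 TPM in DPP3_KO, with changes of -1.65 and -1.01 (adjusted p = 0.0145 and 0.0481). In both genes all DPP3_KO libraries lay below Ctrl. Both belong to families of similar genes, with which reads may be shared, so their levels are uncertain. Tdrd7, the next by p-value, changed by -1.12, or -0.48 after scaling. Of the 47 scaled changes 38 were below 0 and 9 above.

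Of 18 genes best known as interferon-gamma targets 13 were tested and 7 were called lower, against 34.0% of all tested genes. The median of the 13 was -1.39, which scaling brought to -0.79 with 0 called. Gbp6 stood at 13.3, 16.0 and 10.5 TPM in Ctrl and 3.07, 6.04 and 2.89 TPM in DPP3_KO. Gbp7 stood at 13.5, 21.9 and 12.9 TPM in Ctrl and 4.49, 7.26 and 3.24 TPM in DPP3_KO. For Gbp9 the levels were 20.3, 27.5 and 16.3 TPM in Ctrl and 4.84, 8.50 and 1.90 TPM in DPP3_KO. None of these 3 guanylate-binding protein genes overlapped between groups, with changes of -1.55, -1.53 and -2.01 as deposited and -0.99, -0.95 and -1.44 after scaling. They had the smallest p-values of the list. Of the 13 scaled changes 10 were below 0 and 3 above. The window of 6 of the 7 genes of this list in the promoter table held an ISRE match, and 5 held a gamma-activated site match.

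Several lists of cell type markers differed between the groups as well. Over all tested genes 34.0% were called lower and 1.38% higher as deposited, and 0.882% and 1.90% after scaling. In bulk tissue fewer cells of a type and less RNA per cell cannot be told apart. Capillary endothelial markers (13 genes, 11 lower) summed to 2582 to 3252 TPM in Ctrl and 661 to 1241 TPM in DPP3_KO. Alveolar macrophage markers (12 genes, 9 lower) summed to 2470 to 4135 TPM and 315 to 2016 TPM, and alveolar type 1 markers (8 genes, 7 lower) to 3582 to 5915 TPM and 1110 to 2560 TPM. Medians of the 3 lists were -1.79, -2.54 and -2.11 as deposited and -1.13, -2.02 and -1.46 after scaling, where 3, 6 and 2 of their genes still passed. Monocyte and interstitial macrophage markers (12 genes, 4 lower, 0 after scaling) summed to 1275 to 1760 TPM in Ctrl and 543 to 1168 TPM in DPP3_KO. Their count was near the share over all genes. After scaling their sums overlapped, at 947 to 1490 in Ctrl and 677 to 1680 in DPP3_KO. The largest part of each Ctrl sum was Ace, at 511, 564 and 475 TPM in Ctrl and 217, 99.8 and 124 TPM in DPP3_KO. Of the 12 scaled changes 8 were below 0 and 4 above, the latter those of C1qa, C1qb, C1qc and Cx3cr1. Alveolar type 2 markers (8 genes, 4 lower, 0 after scaling) summed to 26735 to 49446 TPM and 19188 to 30145 TPM, so the defining genes of lung were present in every library. Club and secretory markers rose for 4 of 7 genes (2 after scaling) and summed to 78529 to 112020 TPM in Ctrl and 234100 to 304900 TPM in DPP3_KO. Cardiac muscle markers rose for 6 of 8 genes on either scale (medians 1.57 and 2.22) and summed to 489 to 988 TPM in Ctrl and 1863 to 2092 TPM in DPP3_KO. Ciliated cell markers rose for 4 of 8 genes (5 after scaling) and summed to 565 to 795 TPM and 929 to 975 TPM. As deposited 0 of 8 fibroblast markers passed, 1 of 8 smooth muscle and pericyte markers was lower, and of 6 adipocyte markers 1 was lower and 1 higher. The smooth muscle and pericyte list had a median change of 0.50 as deposited. After scaling its median was 1.15, with 7 of 8 changes above 0 and 0 called. Its scaled sums were 173 to 532 in Ctrl and 642 to 1202 in DPP3_KO. Dendritic and plasmacytoid dendritic markers (12 genes, 8 tested, 3 lower and 2 higher) summed to 226 to 393 TPM and 184 to 325 TPM, a list that holds the member Bst2. No marker of these lists was listed at 0 in every library. The part of these cell types in the change of the members was not tested.

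Neutrophil markers separated the libraries in another way. By limma 0 of the 10 genes passed on either scale, with 0 at an unadjusted p under 0.05, and they summed to 4066, 7203 and 53074 TPM in Ctrl replicates 1 to 3 and to 1675, 34875 and 15521 TPM in DPP3_KO replicates 1 to 3. Among the 3 libraries with low sums DPP3_KO replicate 1 was below both Ctrl libraries for 36 of 36 members as deposited, against 81.7% of all tested genes, and for 35 after median-of-ratios scaling, against 41.8%. Among the 3 with high sums both DPP3_KO libraries were below Ctrl replicate 3 for 29 members as deposited, against 69.3%, and for 18 after scaling, against 39.5%. The median difference of the members after scaling was -0.81 among the low and -0.24 among the high libraries, with all genes at -0.03 and -0.02. With the neutrophil marker level as a covariate 27 members were called lower on the deposited values, against 43.0% of all genes. On median-of-ratios scaled values 2 members were, against 3.02% of all genes, Ifit3 (-1.04, limma adjusted p = 0.0245) and Ifit3b (-1.11, adjusted p = 0.0194). These are the near-copies whose reads can be shared, so they may not be 2 separate results. The covariate was added after seeing the data. The low and high sets were formed from the marker level in these same libraries, and members of a library are not independent measurements. Each set has 1 library on one side, so the difference between the sets was not tested.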

How the data were processed

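TruSeq libraries were made from total RNA of mouse lung, per the labels' protocols, and the authors deposited 1 matrix of TPM with gene lengths in bases. HISAT2, StringTie, RSEM and GRCm39 appear in the submitters' processing notes, with neither version nor role, and the sources used here do not say how strand or human tumour reads were handled. TPM keeps no depth, so the depth of each library is unknown and no counting interval is given. Groups and replicate numbers came from sample titles, of which 1 Ctrl title reads 232 for 231, taken as a slip.

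The deposited TPM was fitted as log2(TPM + 1), over genes whose mean reached 1 TPM, with limma 3.58.1 in R 4.3.3 (trend, two-sided, Benjamini-Hochberg over all tested genes, threshold 0.05), and the fit was tested on simulated data. An exact permutation test of 3 against 3 cannot go below p = 0.1, so none is given. Median-of-ratios size factors used the genes above 0 in every library. Lowess (span 0.3) removed length trends.

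RefSeq promoters (GRCm38.p6) and GENCODE M21 transcripts come from an earlier build than the table and were matched by symbol. The members and lists were chosen with earlier results of these data known. Values in every library are given for the 2 members per role with the smallest p and for Ifi35, called with a sign that scaling turned. Each pathway list is represented by its 3 genes with the smallest p, with Ifnar1, Ifnar2, Ifnb1 and Ifng, and a few genes are not reported here. Irf7, Ifit2, Ifit3b, Oas2, Oas3, Oasl1, Zbp1, Isg15, Usp18, Mx1, Rtp4 and Bst2 were given library values after these had been seen. Alternatives were other pseudocounts, filters, scalings, limma settings, thresholds, a replicate block and leaving out each library; the neutrophil covariate was added after seeing the data.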

Additional observations from a re-analysis of the deposited data

How the results depend on the processing

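As deposited 5321 genes, 23 of them members, were lower in DPP3_KO and 216 higher, and 0 members were higher under every alternative run. Pseudocounts of 0.1 and 5, a filter at 5 TPM, TPM without mitochondrial and haemoglobin genes, and limma without trend, robust or with quality weights left 23 to 33 members and 4917 to 7189 genes lower, both highest with quality weights. Genes lower, genes higher, members lower and the members' median were 138, 297, 0 and -0.59 with median-of-ratios scaling, 140, 327, 0 and -0.56 with quantile normalization, and 91, 186, 0 and -0.52 with the length trend also removed. Without a filter 3093 genes and 15 members were lower, without Scgb1a1 in the total 423 and 2, and at an adjusted p under 0.01 13 and 0, with 2 genes higher; at 0.1, 353 were higher. The neutrophil covariate, chosen after seeing the data, gave 6724 genes lower, 329 higher and 27 members lower, and with median-of-ratios scaling 472 genes lower, 599 higher, 2 members lower and a median of -0.61. Leaving out single libraries gave 18 to 4993 genes lower, 1 to 146 higher and 0 to 29 members lower, at medians of -1.42 to -0.99. With median-of-ratios scaling as well, these ranges were 6 to 169, 18 to 171, 0 to 1 (Ifit3 without DPP3_KO replicate 1) and -0.76 to -0.35. The log2 change of Ifi35 turned to 0.028 with median-of-ratios scaling, alone or with the block, and to 0.035 with the covariate, and with single libraries left out it ranged from -0.71 to -0.57 as deposited and from -0.11 to 0.16 on that scale. Oas1a turned to 0.026 on that scale without DPP3_KO replicate 1, and its lowest value with a library left out was -1.02, as deposited without DPP3_KO replicate 2. The cause of these shifts was not tested, and the fits that leave one out also have fewer libraries.

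Same-numbered libraries deviated together at correlations of 0.271, -0.206 and 0.147, so the replicate numbers were not taken to pair the samples. With a replicate block 4734 genes and 22 members were lower, and with the block and median-of-ratios scaling 12 and 0, with 39 genes higher and a median of -0.59. Depth limits all low values to an unknown degree, since TPM does not hold it.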
